A study of Mus musculus with 24 samples.

Results

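Mouse leukemia cells that carry the fusion gene MLL-AF10 in an inducible form were exposed to doxycycline (DOX) or to DMSO, the vehicle, and compared by RNA-seq. The experiment was chosen by its sample labels: 3 DOX and 3 DMSO libraries, which are 6 of the 24 libraries of the series. The cells came from bone marrow of strain C57BL/6, the genotype is given as wild type for both groups, and both grew with the cytokines SCF, IL3 and IL6. Polyadenylated RNA was sequenced from TruSeq libraries. All 6 libraries carried the inducible fusion, and DOX was the difference between the groups. The sources used here do not give the dose, the time, the promoter that drives the fusion or the number of clones. Cells without the fusion that received DOX were not analysed here, so an effect of the drug itself and an effect of the fusion cannot be told apart. No label says that each library is its own culture, and the p-values cover a library-to-library spread that may be technical.

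MLL-AF10 joins the chromatin protein MLL, encoded by Kmt2a, to AF10, encoded by Mllt10, a partner of the histone H3 lysine methyltransferase DOT1L. MLL fusions bind and keep active the posterior Hoxa genes and Meis1, whose products act together on DNA and hold myeloid progenitors in an immature, self-renewing state. Normal granulocytes and monocytes shut this program off as they mature and build granules, lysosomes and pattern-recognition receptors.

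The data are 1 deposited table of normalized values on a log2 scale, with 24557 entries, of which 10105 were 0 in every library. Depth is unknown, since the table holds no counts, and the scale draws differences of low genes towards 0: among 2628 entries with a mean below 1, the 6 libraries spanned a median of only 0.0083 units. A difference of 1 unit is therefore at most a description of the deposited scale and not a measured doubling. The library medians ran from 7.714 to 7.723 with DOX and from 7.705 to 7.711 with DMSO. On the first principal component, with 67.2% of the variance, the DOX libraries lay between 5.62 and 5.90 and the DMSO libraries between −6.18 and −5.08. On the second, with 16.9%, the first library of each group stood apart from the rest of its group, on the same side. In bulk RNA, fewer cells of a type and less RNA per cell cannot be told apart.

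Of 10553 genes with a mean of at least 3.32 units, the log2 of 10, limma called 2089 (19.8%) at a Benjamini-Hochberg adjusted p under 0.05. Of these, 1121 (10.6%) were higher and 968 (9.17%) lower with DOX. Each list count below is to be read beside these shares. With library medians aligned, 928 were higher and 1185 lower, so the direction of the majority depends on the scaling. Rose and fell below are used of these calls alone. The groups did not overlap for 2040 of the called genes, while 36.3% of all tested genes had groups without overlap. The 12 largest rises and 12 largest falls named below were picked among called genes without overlap. For those genes, groups that lie apart were set by the choice and add nothing to the call. The called differences were small, with a median size of 0.15 units. At 0.5 units or more, 26 genes were higher and 41 lower. At 1 unit or more stood S100a8 and S100a9 above and Epha7, Hpgd and Skida1 below (Skida1 was chosen after its value was seen). The median difference over all tested genes was 0.00059. Without DOX 2 the number of calls was 1307 and without DOX 3 it was 1310, the only settings of 14 tried that moved it by more than 1.5 times. With a block for the replicate number the falls numbered 1453.

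**Figure D1:**
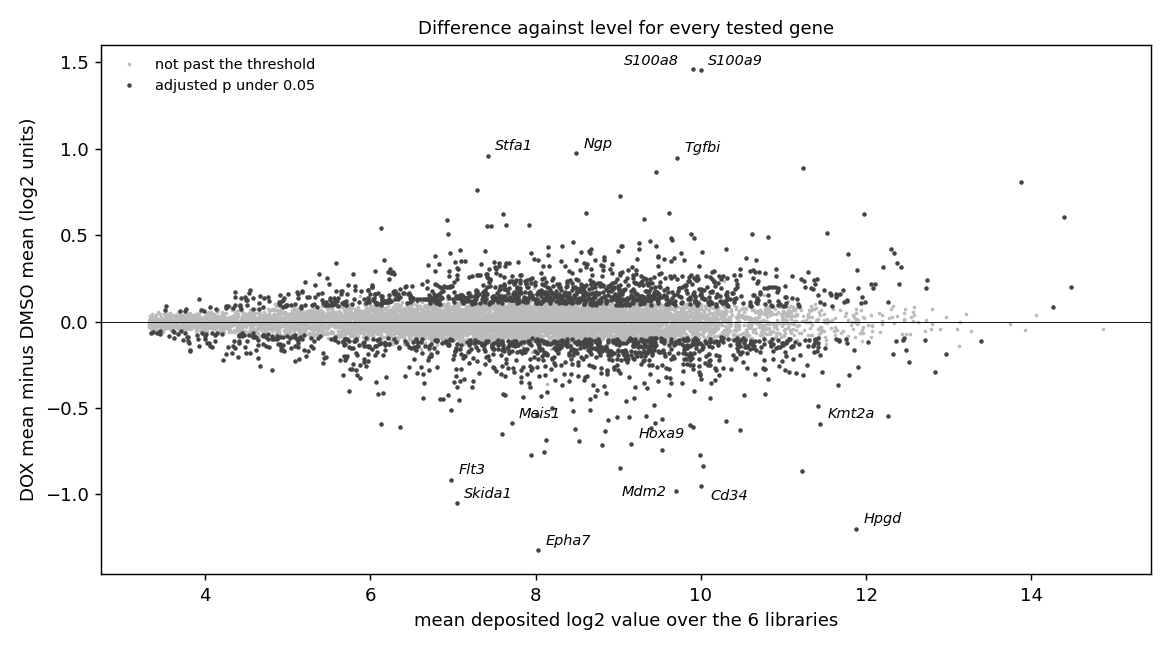
The mean deposited log2 value over the 6 libraries (x axis) against the DOX mean minus the DMSO mean in log2 units (y axis), 1 point per tested gene, with called genes dark. The 2 calprotectin genes lie highest and Epha7 lowest, and most called genes lie within 0.5 units of 0.

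The loci of the fusion were examined first. Kmt2a stood at 11.22, 11.10 and 11.14 in the DOX libraries and 11.61, 11.82 and 11.80 in the DMSO libraries (difference −0.59, SE 0.049, adjusted p = 1.13e-06). Mllt10 stood at 10.03, 9.99 and 9.98 in the DOX libraries and 10.26, 10.38 and 10.37 in the DMSO libraries (difference −0.34, SE 0.036, adjusted p = 1.65e-05). For both loci every DOX library lay below every DMSO library. The values are per gene, and no source used here says whether reads of the fusion were counted with those of the normal loci. A change of the fusion and a change of the normal genes therefore cannot be told apart. Of 20 tested genes in the list of fusion partners and cofactors, these loci included, 1 rose and 4 fell. In both directions together 19.8% of all tested genes were called. The other falls were those of the elongation factor gene Eaf1 (−0.18, adjusted p = 0.0015) and of Dot1l (−0.10), and the rise was that of the partner gene Mllt3 (0.11). Dot1l was not called without DMSO 1, DMSO 2, DMSO 3, DOX 1, DOX 2 or DOX 3, nor under 2 other settings, with adjusted p up to 0.135, and Mllt3 was not called without DMSO 2, DMSO 3, DOX 2 or DOX 3, with adjusted p up to 0.127. Men1, which encodes menin and tethers MLL to its targets, stood at 8.72, 8.67 and 8.69 with DOX and 8.69, 8.69 and 8.70 with DMSO. Its groups overlapped (difference 0.00099, adjusted p = 0.988). The authors' deposited table of gene lists has a list headed as down with MLL-AF10 off, with 966 symbols. Of its 943 symbols found in the table, 940 had a lower mean with DOX and 3 a higher one. Of its 866 tested genes 626 (72.3%) fell and 0 rose, and these made up 64.7% of all 968 falls. No source used here says which libraries the list was drawn from, so it was not taken as independent evidence of its direction.

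The homeobox genes of the Hoxa cluster give transcription factors that set cell identity along the body axis and in blood progenitors. In mm9 the cluster lies on chromosome 6, with Hoxa10 at 52181196 to 52190853. Of 7 tested members 6 fell and 0 rose (median difference −0.23). Hoxa9, the member most tied to MLL leukemia, stood at 8.83, 8.78 and 8.81 in the DOX libraries and 9.48, 9.52 and 9.54 in the DMSO libraries (difference −0.71, SE 0.032, adjusted p = 2.85e-09). Its neighbour Hoxa10 stood at 6.74, 6.69 and 6.77 in the DOX libraries and 7.16, 7.14 and 7.18 in the DMSO libraries (difference −0.42, SE 0.035, adjusted p = 1.03e-06). Hoxa7 stood at 6.87, 6.88 and 6.91 in the DOX libraries and 7.16, 7.23 and 7.20 in the DMSO libraries (difference −0.31, SE 0.034, adjusted p = 1.68e-05). In each of these genes the DOX libraries lay wholly below the DMSO libraries, and the replicate spread was small beside the gap. The other falls were smaller, at −0.23 for Hoxa5, −0.056 for Hoxa6 and −0.14 for Hoxa3. Hoxa6 lay near the filter, where the scale narrows differences, and was not called without DMSO 2, DMSO 3, DOX 2 or DOX 3, nor under 3 other settings, with adjusted p up to 0.183. Hoxa2, Hoxa4, Hoxa11 and the noncoding RNA Hotairm1 stayed under the filter in mean level and were not tested, and Hoxa13 was 0 in every library.

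MEIS and PBX proteins are homeodomain cofactors that bind DNA with HOX proteins. Meis1 stood at 7.42, 7.38 and 7.46 in the DOX libraries and 8.04, 7.99 and 7.99 in the DMSO libraries (difference −0.59, SE 0.035, adjusted p = 4.63e-08). Pbx3, whose product pairs with HOXA9 and MEIS1 in leukemia, stood at 7.24, 7.29 and 7.28 in the DOX libraries and 7.45, 7.51 and 7.59 in the DMSO libraries (difference −0.24, SE 0.039, adjusted p = 0.000473). Both genes were lower in every DOX library. The related Pknox1 (−0.14) also fell, but was not called without DMSO 2, DMSO 3, DOX 2 or DOX 3, with adjusted p up to 0.0637. Pknox2 moved the other way, at 6.52, 6.32 and 6.25 in the DOX libraries and 6.11, 6.03 and 6.07 in the DMSO libraries (difference 0.29, SE 0.054, adjusted p = 0.00138). Pbx2 was not called (difference 0.046, adjusted p = 0.392). Of 6 tested members 4 fell and 1 rose (median −0.19).

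**Figure D2:**
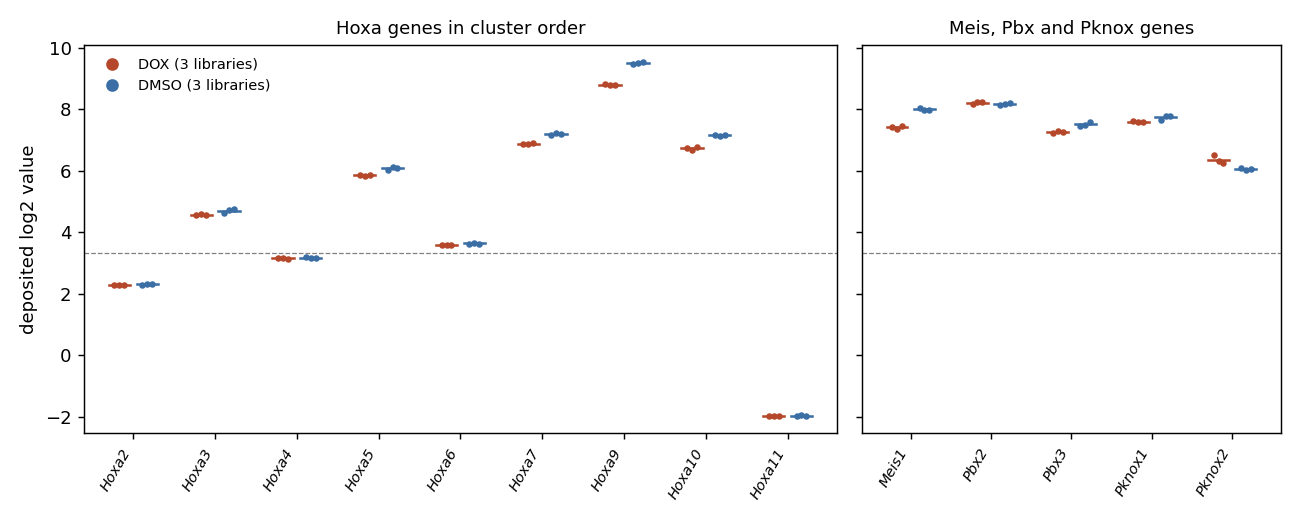
Deposited log2 values (y axis) of 9 Hoxa genes in cluster order and of 5 Meis, Pbx and Pknox genes, with DOX libraries in red left of DMSO libraries in blue, horizontal bars at group means and a dashed line at the filter of 3.32. The gap between groups is widest at Hoxa9 and Meis1 and turned round at Pknox2.

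Other transcription factors linked to stem cell and leukemia self-renewal fell broadly. Of 25 tested members 17 fell and 0 rose, with a median of −0.18. Mef2c, a MADS-box factor active in MLL leukemia stem cells, stood at 9.62, 9.58 and 9.61 in the DOX libraries and 10.39, 10.50 and 10.43 in the DMSO libraries (difference −0.83, SE 0.034, adjusted p = 7.7e-10). Sox4, an HMG-box factor, stood at 7.57, 7.51 and 7.59 in the DOX libraries and 8.37, 8.37 and 8.24 in the DMSO libraries (difference −0.77, SE 0.040, adjusted p = 1.35e-08). The ETS factor gene Erg stood at 7.35, 7.25 and 7.20 in the DOX libraries and 7.93, 7.92 and 7.91 in the DMSO libraries (difference −0.65, SE 0.039, adjusted p = 4.8e-08). These 3 genes showed no overlap between groups. The homeobox and phosphatase partners Six4 (−0.43) and Eya1 (−0.45), the zinc finger factor gene Mecom (−0.40), the histone demethylase family gene Jmjd1c (−0.44), Bahcc1 (−0.54), Myb (−0.30) and Lmo2 (−0.30) fell as well. Myc, which encodes a central regulator of cell growth, stood at 9.91, 9.92 and 9.88 in the DOX libraries and 9.95, 9.86 and 9.88 in the DMSO libraries, with overlapping groups (difference 0.0045, adjusted p = 0.946). The blood stem cell factor genes Tal1 (0.010) and Gata2 (−0.023) and the chromatin cofactor gene Prdm16 (−0.032) were not called either. Outside the list, the E protein gene Tcf4 stood at 9.12, 9.14 and 9.21 in the DOX libraries and 9.77, 9.98 and 9.94 in the DMSO libraries (difference −0.74, SE 0.048, adjusted p = 1.08e-07) and Tsc22d1, a leucine zipper regulator, at 7.75, 7.74 and 7.71 in the DOX libraries and 8.32, 8.55 and 8.59 in the DMSO libraries (difference −0.75, SE 0.055, adjusted p = 3.47e-07). Neither overlapped. Skida1 encodes a protein with a SKI and DACH domain and stood at 6.53, 6.50 and 6.53 in the DOX libraries and 7.52, 7.59 and 7.60 in the DMSO libraries (difference −1.05, SE 0.035, adjusted p = 1.25e-10), again without overlap.

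Surface molecules of progenitors fell too. Of 14 tested members 9 fell and 2 rose (median −0.19). Epha7, an ephrin receptor tyrosine kinase gene on chromosome 4 from 28740281 to 28894649 in mm9, stood at 7.41, 7.37 and 7.34 in the DOX libraries and 8.61, 8.79 and 8.69 in the DMSO libraries (difference −1.32, SE 0.043, adjusted p = 1.25e-10). The sialomucin gene Cd34 stood at 9.65, 9.50 and 9.45 in the DOX libraries and 10.55, 10.44 and 10.45 in the DMSO libraries (difference −0.95, SE 0.047, adjusted p = 7.88e-09). Muc13, a transmembrane mucin gene, stood at 9.72, 9.53 and 9.57 in the DOX libraries and 10.39, 10.35 and 10.39 in the DMSO libraries (difference −0.77, SE 0.043, adjusted p = 2.58e-08). All DOX libraries lay below all DMSO libraries in the 3 genes. The sialic acid receptor gene Cd33 (−0.58), the growth factor gene Angpt1 (−0.32) and the complement-related receptor gene Cd93 (−0.26) were among the other falls. Prom1, which encodes the stem cell marker prominin, rose by contrast, at 7.09, 6.90 and 6.94 in the DOX libraries and 6.67, 6.53 and 6.59 in the DMSO libraries (difference 0.38, SE 0.049, adjusted p = 6.64e-05). The leukocyte tetraspanin gene Cd53 (0.093) rose too, and was not called without DMSO 1, DMSO 2, DOX 1, DOX 2 or DOX 3, nor under 3 other settings, with adjusted p up to 0.126. The stem cell antigen gene Ly6a was not called (0.021, adjusted p = 0.716).

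Receptors for cytokines and growth factors did not move together. Of 29 tested members 11 rose and 5 fell (median 0.061), and without DMSO 2 the falls numbered 3. The largest fall was that of Epha7 (−1.32), which is also counted among the progenitor surface genes. Flt3, the receptor of FLT3 ligand on early progenitors, stood at 6.56, 6.51 and 6.50 in the DOX libraries and 7.27, 7.55 and 7.49 in the DMSO libraries (difference −0.91, SE 0.056, adjusted p = 5.14e-08). The receptor subunit genes for G-CSF and GM-CSF went the other way: Csf3r stood at 8.45, 8.52 and 8.59 in the DOX libraries and 8.19, 8.14 and 8.27 in the DMSO libraries (difference 0.32, SE 0.042, adjusted p = 9.38e-05) and Csf2ra at 9.001, 9.06 and 9.11 in the DOX libraries and 8.63, 8.80 and 8.82 in the DMSO libraries (difference 0.30, SE 0.047, adjusted p = 0.000337). Groups were apart in all 3 genes, Flt3 below and the others above. The shared beta chain gene Csf2rb (0.26), the TNF receptor gene Tnfrsf1b (0.28) and the interferon gamma receptor gene Ifngr1 (0.16) rose. The fall of the common IL6 signal transducer gene Il6st (−0.22) lay near the threshold (adjusted p = 0.0413). It was not called without DMSO 2, DMSO 3, DOX 1 or DOX 3, nor under 4 other settings, with adjusted p up to 0.276. Kit, the receptor of the SCF in the medium, stood at 9.07, 8.79 and 8.76 in the DOX libraries and 9.14, 8.93 and 8.91 in the DMSO libraries. It was not called (difference −0.12, adjusted p = 0.255). Blocking by replicate number gave it an adjusted p of 0.0026. The M-CSF receptor gene Csf1r, at 0.15, was not called (adjusted p = 0.0704, and 3.72e-06 with the block).

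Downstream of these receptors, 6 of 22 Jak, Stat, Socs and Pim genes rose and 3 fell (median 0.024). The rises numbered 3 without DMSO 2, without DOX 2 or without DOX 3. Cish, a STAT5 target that dampens cytokine signals, stood at 8.93, 9.09 and 9.05 in the DOX libraries and 8.52, 8.69 and 8.72 in the DMSO libraries (difference 0.38, SE 0.051, adjusted p = 0.000118). Socs3, a feedback inhibitor of IL6 and G-CSF signals, stood at 8.17, 8.11 and 8.03 in the DOX libraries and 7.83, 7.93 and 7.91 in the DMSO libraries (difference 0.21, SE 0.042, adjusted p = 0.00233). Socs2, another inhibitor of the family, stood at 8.20, 8.25 and 8.27 in the DOX libraries and 8.35, 8.48 and 8.59 in the DMSO libraries (difference −0.23, SE 0.049, adjusted p = 0.00345). Cish and Socs3 were higher and Socs2 lower in every DOX library. Among the survival kinase genes Pim2 fell (−0.23), Pim1 rose (0.093, not called without DMSO 1, DMSO 2, DMSO 3, DOX 2 or DOX 3, nor under 3 other settings, with adjusted p up to 0.208) and Pim3 was not called (−0.0026).

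Calprotectin is the S100A8 and S100A9 dimer that fills the cytosol of neutrophils and monocytes. S100a8, on chromosome 3 from 90472993 to 90473956 in mm9, stood at 11.07, 10.38 and 10.45 in the DOX libraries and 9.45, 9.03 and 9.03 in the DMSO libraries (difference 1.46, SE 0.14, adjusted p = 5.3e-06). Its neighbour S100a9 stood at 11.13, 10.56 and 10.50 in the DOX libraries and 9.46, 9.19 and 9.17 in the DMSO libraries (difference 1.45, SE 0.12, adjusted p = 1.13e-06). Every DOX library lay above every DMSO library, and in each group the first library was the highest. In the same first libraries Ngp, Chil3 and the mast cell protease gene Cpa3 were also the highest of their group. Cpa3 itself stood at 8.77, 8.15 and 8.26 with DOX and 8.66, 8.08 and 8.19 with DMSO and was not called (adjusted p = 0.732). Without the first libraries S100a8 differed by 1.39 and S100a9 by 1.35. The part of other cells in this difference was not tested. S100a6 (0.35) and S100a11 (0.18) rose as well, so that 5 of 9 tested S100 genes were higher and 0 lower (median 0.17). Stefins, small inhibitors of cysteine proteases, rose in 7 of 8 tested members of a list shared with the cystatins (median 0.18). Stfa1 stood at 8.27, 7.68 and 7.76 in the DOX libraries and 7.05, 6.87 and 6.91 in the DMSO libraries (difference 0.96, SE 0.11, adjusted p = 1.85e-05) and BC100530, of the same family, at 8.002, 7.52 and 7.49 in the DOX libraries and 7.05, 6.85 and 6.82 in the DMSO libraries (difference 0.76, SE 0.10, adjusted p = 8.53e-05). The stefin A genes resemble each other so closely that their split of reads is uncertain. Cst3, which encodes the secreted cystatin C, stood at 11.41, 11.57 and 11.60 in the DOX libraries and 11.21, 11.32 and 11.32 in the DMSO libraries (difference 0.24, SE 0.045, adjusted p = 0.00129).

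Genes of the neutrophil granules rose. In the secondary and later granule list 24 of 37 tested members rose and 2 fell, with a median of 0.18. Ngp, a secondary granule protein gene, stood at 9.37, 8.80 and 8.78 in the DOX libraries and 8.15, 7.92 and 7.95 in the DMSO libraries (difference 0.98, SE 0.11, adjusted p = 3.1e-05). The lactoferrin gene Ltf stood at 6.52, 6.35 and 6.35 in the DOX libraries and 5.87, 5.87 and 5.85 in the DMSO libraries (difference 0.54, SE 0.042, adjusted p = 5.58e-07), and Lcn2, whose product binds bacterial iron carriers, at 8.14, 7.82 and 7.78 in the DOX libraries and 7.39, 7.22 and 7.27 in the DMSO libraries (difference 0.62, SE 0.073, adjusted p = 3.3e-05). The lysozyme gene Lyz2 stood at 14.13, 14.34 and 14.36 in the DOX libraries and 13.31, 13.55 and 13.55 in the DMSO libraries (difference 0.81, SE 0.063, adjusted p = 6.33e-07). None of the 4 genes overlapped between groups. The chitinase-like protein gene Chil3 (0.56), which was not called with robust moderation, with adjusted p up to 0.16, the leukotriene B4 receptor gene Ltb4r1 (0.55), the glutathione transferase gene Mgst1 (0.42), Cd177 (0.30) and the granulocyte factor gene Cebpe (0.30) also rose. Slpi, which encodes an inhibitor of neutrophil elastase, went against the list, at 8.47, 8.42 and 8.47 in the DOX libraries and 9.03, 9.23 and 9.23 in the DMSO libraries (difference −0.71, SE 0.047, adjusted p = 1.34e-07), and the metalloprotease gene Adam8 (−0.24) fell too. The collagenase gene Mmp8 stood at 10.08, 9.98 and 9.93 with DOX and 10.02, 9.96 and 10.02 with DMSO, with overlapping groups (difference −0.0033, adjusted p = 0.967). Of 12 primary granule genes 6 rose and 1 fell (median 0.13). Ctsc, the protease that activates granule serine proteases, stood at 12.21, 12.34 and 12.31 in the DOX libraries and 11.64, 11.68 and 11.67 in the DMSO libraries (difference 0.62, SE 0.034, adjusted p = 1.73e-08). The elastase gene Elane (0.32) and the proteinase gene Prtn3 (0.24) rose less. The peroxidase gene Mpo stood at 14.70, 14.51 and 14.53 in the DOX libraries and 14.58, 14.27 and 14.29 in the DMSO libraries (difference 0.20, SE 0.067, adjusted p = 0.0486), but was not called without DMSO 2, DMSO 3, DOX 1, DOX 2 or DOX 3, nor under 5 other settings, with adjusted p up to 0.322. Its groups overlapped, and with quantile normalization it was called in the opposite direction, at −0.12 (adjusted p = 0.042). Ctsg, which encodes cathepsin G, was not called (0.0010, adjusted p = 0.989), and the inhibitor gene Serpinb1a fell (−0.30).

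**Figure D3:**
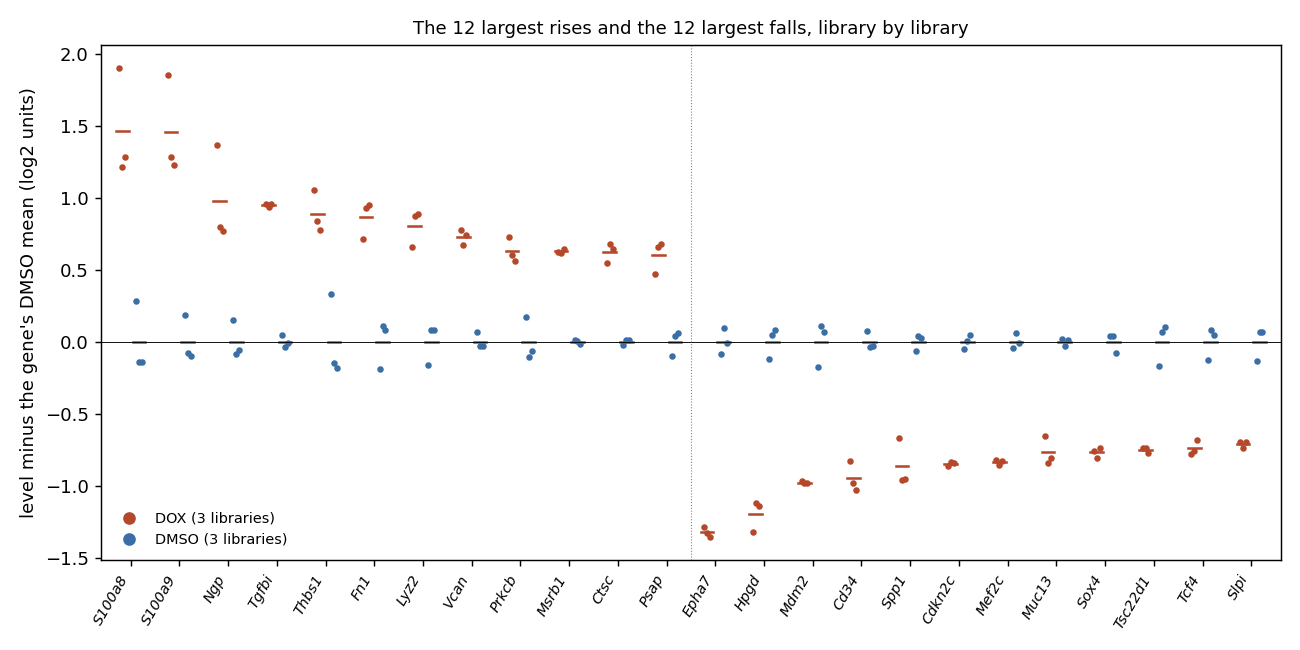
Level minus the gene's DMSO mean in log2 units (y axis) for the 12 largest rises and the 12 largest falls of the naming rule, with each DOX library in red left of each DMSO library in blue and bars at group means. The first DOX library lies highest at S100a8, S100a9 and Ngp. The groups are apart in all 24 genes because the naming rule required it.

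Monocyte and macrophage genes rose in the majority but not as a whole. Of 47 tested members 27 rose and 6 fell (median 0.19), and the falls numbered 2 or 3 without any one of DMSO 2, DMSO 3, DOX 2 and DOX 3. Tgfbi, a secreted matrix protein gene, stood at 10.19, 10.17 and 10.19 in the DOX libraries and 9.28, 9.20 and 9.22 in the DMSO libraries (difference 0.95, SE 0.032, adjusted p = 1.25e-10). Vcan, which encodes the proteoglycan versican of classical monocytes, stood at 9.43, 9.33 and 9.40 in the DOX libraries and 8.72, 8.62 and 8.63 in the DMSO libraries (difference 0.73, SE 0.038, adjusted p = 1.4e-08). The macrophage antigen gene Adgre1, known as F4/80, stood at 9.39, 9.51 and 9.47 in the DOX libraries and 8.98, 9.07 and 9.07 in the DMSO libraries (difference 0.42, SE 0.039, adjusted p = 3.71e-06). The DOX libraries were higher throughout in these 3 genes. C3 (0.51), Ccl6 (0.51), Ctsh (0.44), Ly6c2 (0.40), Mrc1 (0.34) and Msr1 (0.32) rose as well. Against them, the fractalkine receptor gene Cx3cr1 stood at 6.82, 6.87 and 6.88 in the DOX libraries and 6.99, 7.42 and 7.30 in the DMSO libraries (difference −0.38, SE 0.076, adjusted p = 0.00242, not called with robust moderation, with adjusted p up to 0.099), and the transglutaminase gene F13a1 at 11.998, 11.99 and 11.99 in the DOX libraries and 12.40, 12.62 and 12.61 in the DMSO libraries (difference −0.55, SE 0.045, adjusted p = 1.14e-06). The lipopolysaccharide co-receptor gene Cd14 (−0.039, adjusted p = 0.454) and the complement genes C1qb (0.031) and C1qc (0.014) were not called.

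Lysosomes, the acid compartments in which phagocytes digest their targets, had 25 of 50 tested genes higher and 1 lower (median 0.11). The largest rise in this list was 0.34, that of Ctsd. Psap, the precursor of the saposins that help to break down glycolipids, is counted in the monocyte list and not in this one. It stood at 14.56, 14.75 and 14.77 in the DOX libraries and 13.99, 14.13 and 14.15 in the DMSO libraries (difference 0.60, SE 0.050, adjusted p = 1.13e-06). The membrane protein gene Lamp1 stood at 12.53, 12.61 and 12.62 in the DOX libraries and 12.21, 12.30 and 12.30 in the DMSO libraries (difference 0.31, SE 0.034, adjusted p = 1.47e-05), the aspartic protease gene Ctsd at 12.58, 12.52 and 12.52 in the DOX libraries and 12.23, 12.19 and 12.19 in the DMSO libraries (difference 0.34, SE 0.028, adjusted p = 1.45e-06). Both groups were separate in the 3 genes. The sialidase gene Neu1 (0.30), the acid lipase gene Lipa (0.22) and Ctsl (0.32) rose. The sulfamidase gene Sgsh was the one fall (−0.15), and the acid alpha-galactosidase gene Gla was not called (−0.033). Of the receptors that feed this compartment, Fcgr3 stood at 10.18, 10.15 and 10.14 in the DOX libraries and 9.69, 9.64 and 9.68 in the DMSO libraries (difference 0.48, SE 0.031, adjusted p = 8.57e-08), and Fcgr2b (0.37), Fcgr1 (0.34) and the common gamma chain gene Fcer1g (0.17) rose. In all, 7 of 16 Fc receptor and adaptor genes rose and 1 fell, and with the replicate block 11 rose. The adaptor gene Lat2 was the fall (−0.32). Of 16 C-type lectin genes 6 rose, among them Clec4a2 (0.40), and Cd69, an early activation antigen, fell (−0.30), with 3 falls in the list without DMSO 1. Of 19 Toll-like receptor genes and partners 6 rose, among them the lipopolysaccharide receptor gene Tlr4 (0.38) and Tlr8 (0.35), and 1 fell, which was that of the RNA sensor gene Tlr7 (−0.13, not called without DMSO 2, DMSO 3, DOX 2 or DOX 3, with adjusted p up to 0.133). Falls in that list numbered 5 without DMSO 1 and 3 without both first libraries. Of 6 subunits of the phagocyte NADPH oxidase 4 rose: Cyba (0.19), Rac2 (0.19), Cybb (0.16) and Ncf4 (0.13), although the count was 2 without DOX 2 or DOX 3. Cybb was not called without DOX 2 or DOX 3, nor with robust moderation, with adjusted p up to 0.114, and Ncf4 was not called without DMSO 1, DMSO 3, DOX 2 or DOX 3, with adjusted p up to 0.173.

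Among the regulators of myeloid fate, rises outnumbered falls. Of 30 tested factors 14 rose and 3 fell (median 0.093), with 5 falls without DMSO 1. Klf4, a Krüppel-like factor of monocytes, stood at 7.57, 7.84 and 7.81 in the DOX libraries and 7.14, 7.18 and 7.23 in the DMSO libraries (difference 0.55, SE 0.057, adjusted p = 9.1e-06). Irf5, an interferon regulatory factor of inflammatory macrophages, stood at 9.18, 9.27 and 9.36 in the DOX libraries and 8.74, 8.87 and 8.89 in the DMSO libraries (difference 0.44, SE 0.047, adjusted p = 1.62e-05). In both the DOX libraries were the higher ones. Klf6 (0.36), Klf13 (0.32), Cebpb (0.25), Cebpd (0.20) and Gfi1 (0.20) rose. The PU.1 gene Spi1 rose (0.14) and was not called without DMSO 2, DOX 2 or DOX 3, with adjusted p up to 0.0756. Cebpa, which starts granulocyte commitment, stood at 9.65, 9.58 and 9.56 in the DOX libraries and 9.62, 9.44 and 9.53 in the DMSO libraries and was not called (difference 0.063, adjusted p = 0.345). The largest change in the list was a fall, that of Tcf4 (−0.74), whose values are given above. The lymphoid and progenitor factor gene Ikzf1 fell (−0.33), as did Runx3 (−0.19).

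Cell cycle and survival genes moved in both directions. Mdm2, whose product marks p53 for destruction, stood at 9.22, 9.21 and 9.21 in the DOX libraries and 10.02, 10.30 and 10.26 in the DMSO libraries (difference −0.98, SE 0.055, adjusted p = 2.48e-08), and no library of 1 group reached the other. Among p53 targets, the cyclin-dependent kinase inhibitor gene Cdkn1a stood at 9.28, 9.46 and 9.41 in the DOX libraries and 9.16, 9.17 and 9.13 in the DMSO libraries (difference 0.23, SE 0.042, adjusted p = 0.00143), and Ccng1 (0.25) and Trp53inp1 (0.24) rose. In contrast, the targets Sesn1 (−0.31), Xpc (−0.34) and Pmaip1 (−0.24) fell. Trp53 itself was at −0.090 (adjusted p = 0.0988) and not called. Of 31 tested p53 pathway genes 10 rose and 5 fell (median 0.046), with 5 rises without DOX 3. Among G1 regulators, the inhibitor gene Cdkn2c stood at 8.58, 8.62 and 8.60 in the DOX libraries and 9.40, 9.46 and 9.49 in the DMSO libraries (difference −0.85, SE 0.034, adjusted p = 7.7e-10) and the kinase gene Cdk6, one of the targets of that inhibitor, at 11.29, 11.09 and 11.13 in the DOX libraries and 11.61, 11.68 and 11.68 in the DMSO libraries (difference −0.49, SE 0.044, adjusted p = 3e-06). Both were lower in every DOX library. Cdk4 (−0.18) fell and the cyclin gene Ccnd3 (0.19) rose, giving 3 higher and 5 lower of 20, with 3 lower without DMSO 2 or without DOX 1. The shares over all tested genes were 10.6% higher and 9.17% lower. The survival gene Bcl2 stood at 8.17, 8.13 and 8.25 in the DOX libraries and 8.79, 8.86 and 8.98 in the DMSO libraries (difference −0.69, SE 0.047, adjusted p = 1.67e-07), and another of its class, Mcl1, at 10.97, 11.07 and 11.01 in the DOX libraries and 10.78, 10.86 and 10.89 in the DMSO libraries (difference 0.17, SE 0.036, adjusted p = 0.00354). Bcl2 was lower and Mcl1 higher in every DOX library, and Bcl2l1 (−0.011) was not called.

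Growth programs had a smaller share of calls in both directions together than the 19.8% over all tested genes. Their numbers depended on single libraries and on the replicate block. Of 44 DNA replication genes 7 fell and 0 rose (median −0.061), a larger share of falls than the 9.17% over all tested genes. Called or not, 39 of the 44 had a negative difference and 5 a positive one. The largest called falls were those of Pola1 (−0.16), of the polymerase that primes new strands, and of the helicase subunit gene Mcm6 (−0.14), which was not called without DOX 3, with adjusted p up to 0.0535. The number of falls moved between 1 without DOX 3 and 18 with the replicate block. Of 45 mitosis genes 3 rose and 2 fell (median 0.017), and the rises numbered between 1 and 7 over single omitted libraries and the replicate block, and the falls 4 without DMSO 1 and 6 without both first libraries. Of 77 ribosomal protein genes 2 rose and 0 fell, with 6 rises without DOX 1, 10 with the block and 23 without both first libraries. Called or not, 58 of the 77 had a positive difference and 19 a negative one. Of 37 type I interferon response genes 1 rose and 2 fell, with 4 rises without DMSO 1, and with falls between 0 without DOX 2 or DOX 3, 6 without DOX 1 and 9 with the block. Of 72 respiratory chain genes 7 rose, a count that moved between 1 and 17 without single libraries and was 4 with library medians aligned and 15 with the block. Here 57 of the 72 had a positive difference and 15 a negative one. Over all tested genes the median difference was 0.00059, and −0.011 with library medians aligned. The counts of signs were not repeated under that scaling.

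**Figure D4:**
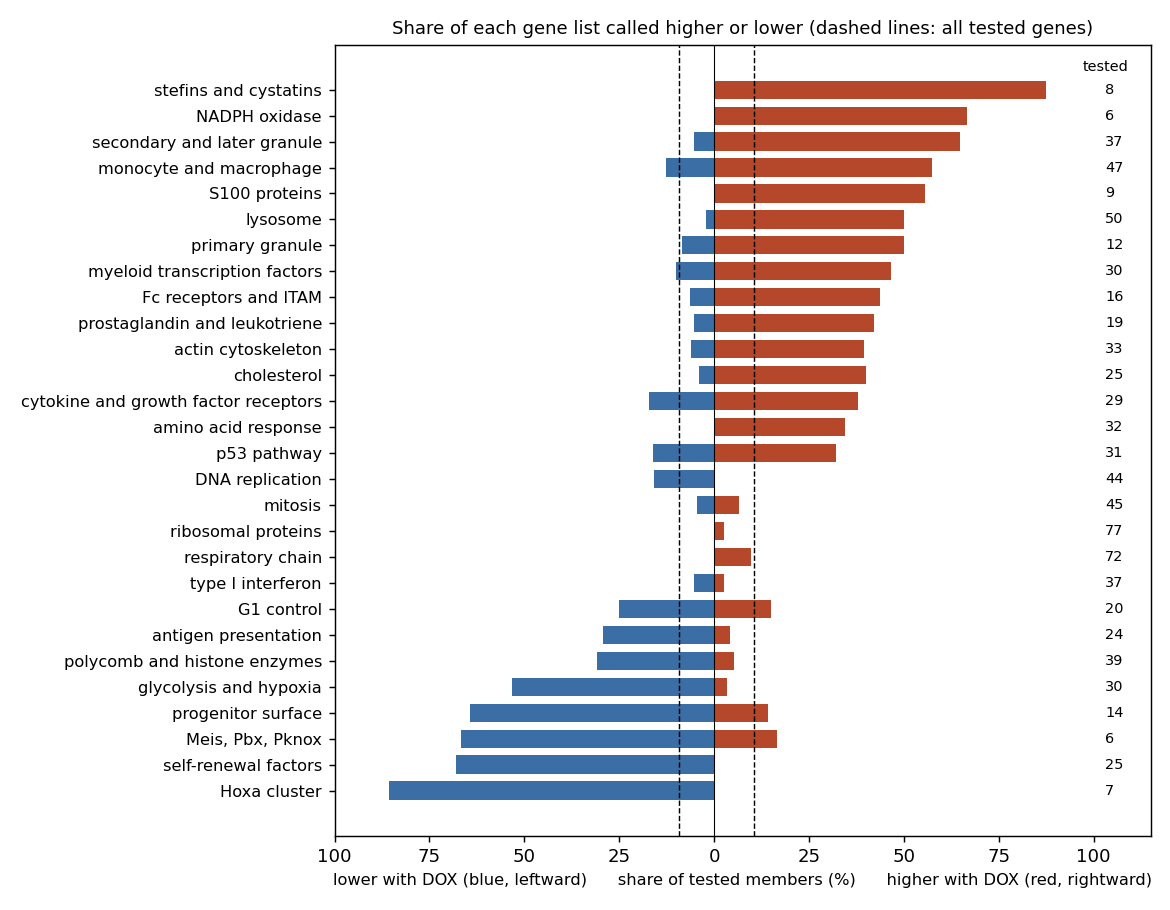
Share of the tested members of 28 gene lists that were called higher (red, rightward) or lower (blue, leftward) with DOX, with the number tested at the right. Dashed lines mark the shares over all tested genes, 10.6% higher and 9.17% lower.

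Among genes of sugar breakdown and the response to low oxygen, falls outnumbered rises. Glycolysis splits glucose to pyruvate in the cytosol, and many of its genes share, with genes of oxygen sensing and mitophagy, the hypoxia response element bound by HIF. Of 30 tested members 16 fell and 1 rose, with a median of −0.11, and 10 fell without DMSO 2. The promoters of the 5 falls with the smallest adjusted p are shown because this short element is the feature such genes are known to share. The sequences run from 250 bases before to 50 after the transcript start, 5′ to 3′ on the gene's strand, from RefSeq with GRCm38.p6 coordinates, and capitals mark the core ACGTG on either strand. They lie at chr12:54203825-54204124, minus strand (Egln3), chr7:138909457-138909756, minus strand (Bnip3), chr2:71872974-71873273, plus strand (Pdk1, the first of 2 listed starts), chr6:124814109-124814408, minus strand (Tpi1) and chr7:46845554-46845853, plus strand (Ldha, the first of 2 listed starts).
Egln3: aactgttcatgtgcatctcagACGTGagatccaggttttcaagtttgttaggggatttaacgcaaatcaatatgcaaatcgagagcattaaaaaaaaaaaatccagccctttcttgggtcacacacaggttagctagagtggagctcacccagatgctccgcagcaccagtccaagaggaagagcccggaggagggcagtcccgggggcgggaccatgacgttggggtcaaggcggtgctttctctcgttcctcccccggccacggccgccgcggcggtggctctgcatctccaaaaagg
Bnip3: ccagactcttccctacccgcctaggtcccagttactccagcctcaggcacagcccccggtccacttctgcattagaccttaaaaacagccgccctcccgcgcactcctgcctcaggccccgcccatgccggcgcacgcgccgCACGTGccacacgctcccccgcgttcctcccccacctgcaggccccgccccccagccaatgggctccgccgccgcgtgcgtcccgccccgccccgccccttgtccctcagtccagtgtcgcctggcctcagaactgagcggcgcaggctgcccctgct
Pdk1: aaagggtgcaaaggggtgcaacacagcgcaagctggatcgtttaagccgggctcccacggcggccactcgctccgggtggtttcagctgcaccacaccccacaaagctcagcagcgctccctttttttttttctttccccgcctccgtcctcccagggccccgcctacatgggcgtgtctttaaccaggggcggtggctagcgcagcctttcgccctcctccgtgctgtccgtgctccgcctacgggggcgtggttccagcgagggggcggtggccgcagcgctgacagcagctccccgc
Tpi1: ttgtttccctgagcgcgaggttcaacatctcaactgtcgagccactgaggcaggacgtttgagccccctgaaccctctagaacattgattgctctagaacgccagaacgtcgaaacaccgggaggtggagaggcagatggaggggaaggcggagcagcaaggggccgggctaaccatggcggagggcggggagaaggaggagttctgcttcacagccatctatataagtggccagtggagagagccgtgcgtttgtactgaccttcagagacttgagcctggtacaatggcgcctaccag
Ldha: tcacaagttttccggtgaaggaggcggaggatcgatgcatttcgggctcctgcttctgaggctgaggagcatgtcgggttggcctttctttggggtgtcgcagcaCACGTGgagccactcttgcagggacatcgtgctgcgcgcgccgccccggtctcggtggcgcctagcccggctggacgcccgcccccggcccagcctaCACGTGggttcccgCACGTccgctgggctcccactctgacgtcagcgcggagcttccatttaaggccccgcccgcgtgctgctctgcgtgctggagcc
The core ACGTG stood in the windows of Egln3, Bnip3 and Ldha, with 5 overlapping matches over both strands in Ldha, and not in those of Pdk1 and Tpi1. Over all 15 fallen members with a promoter in the table, 11 (73.3%) held it, against 7 of 12 (58.3%) members of the list that did not fall and 27.0% of the promoters of 8400 tested genes. Only ACGTG was searched, so these shares leave out other forms of the element, such as GCGTG, which the Pdk1 window holds. A match is a description of letters and not a binding site.

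Egln3, the oxygen-sensing prolyl hydroxylase that is itself a HIF target, stood at 9.11, 9.08 and 9.08 in the DOX libraries and 9.73, 9.68 and 9.70 in the DMSO libraries (difference −0.62, SE 0.032, adjusted p = 1.12e-08). Bnip3, a receptor for the removal of mitochondria, stood at 8.63, 8.63 and 8.66 in the DOX libraries and 8.997, 9.12 and 9.05 in the DMSO libraries (difference −0.41, SE 0.036, adjusted p = 1.82e-06). The triose phosphate isomerase gene Tpi1 stood at 11.39, 11.55 and 11.50 in the DOX libraries and 11.84, 11.87 and 11.82 in the DMSO libraries (difference −0.37, SE 0.037, adjusted p = 9.11e-06). In these genes the DOX libraries were lower without exception, and for Egln3 they lay close to each other. Pdk1, a kinase that inhibits the mitochondrial pyruvate dehydrogenase, stood at 9.82, 9.89 and 9.80 in the DOX libraries and 10.14, 10.19 and 10.18 in the DMSO libraries (difference −0.33, SE 0.033, adjusted p = 8.3e-06). The lactate dehydrogenase gene Ldha stood at 12.40, 12.39 and 12.42 in the DOX libraries and 12.63, 12.66 and 12.63 in the DMSO libraries (difference −0.24, SE 0.027, adjusted p = 2.26e-05). The lactate exporter gene Slc16a3 (−0.27), Pgk1 (−0.28), Pfkl (−0.27), Aldoc (−0.22) and Egln1 (−0.22) fell as well. Hif1a, which encodes the inducible HIF subunit, was the one rise, at 10.71, 10.70 and 10.70 in the DOX libraries and 10.57, 10.55 and 10.53 in the DMSO libraries (difference 0.15, SE 0.029, adjusted p = 0.00166). Gapdh (−0.068, adjusted p = 0.138), the hexokinase gene Hk2 (0.054) and Vegfa (0.034), a classical hypoxia target, were not called. Eno1 was not tested, as its 6 values lay at −1.47 on the deposited scale.

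**Figure D5:**
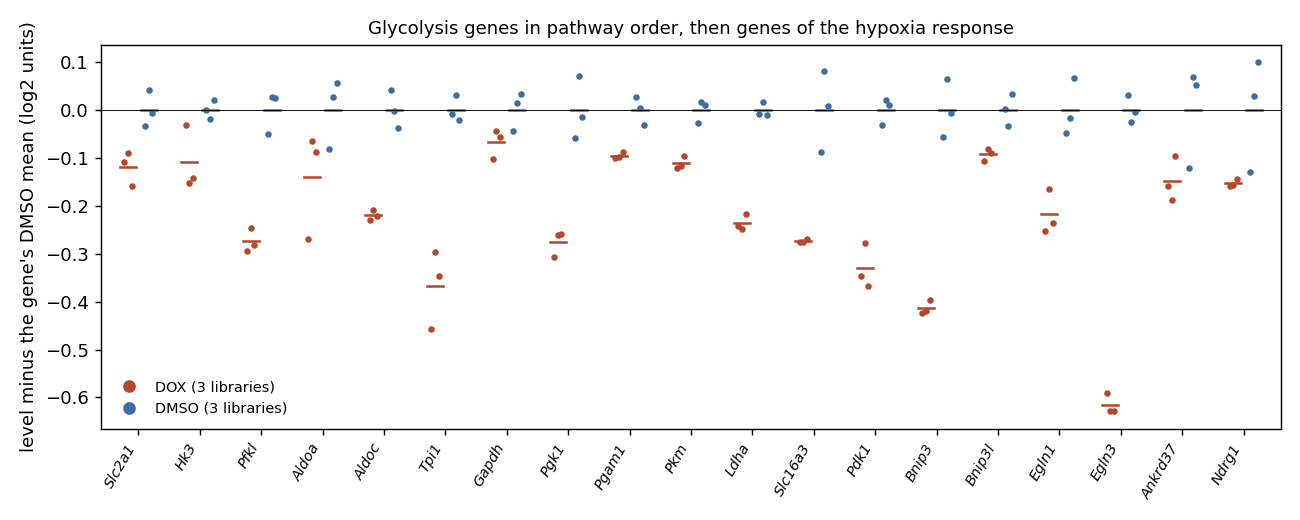
Level minus the gene's DMSO mean in log2 units (y axis) for glycolysis genes in pathway order followed by genes of the hypoxia response, with DOX libraries in red left of DMSO libraries in blue. Egln3 lies lowest, and the groups overlap at Aldoa, at Ankrd37 and, barely, at Gapdh.

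Lipid mediators and matrix molecules held several of the largest changes. Hpgd, the dehydrogenase that inactivates prostaglandins, stood at 11.16, 11.36 and 11.34 in the DOX libraries and 12.36, 12.53 and 12.56 in the DMSO libraries (difference −1.20, SE 0.054, adjusted p = 2.85e-09). The cyclooxygenase gene Ptgs1, on the synthesis side, stood at 9.98, 9.81 and 9.84 in the DOX libraries and 9.52, 9.28 and 9.39 in the DMSO libraries (difference 0.48, SE 0.055, adjusted p = 2.5e-05), and the leukotriene A4 hydrolase gene Lta4h at 11.51, 11.42 and 11.41 in the DOX libraries and 11.23, 11.12 and 11.13 in the DMSO libraries (difference 0.29, SE 0.037, adjusted p = 6.81e-05). Hpgd was lower and the synthesis genes higher in every DOX library. Alox5ap (0.26), of leukotriene synthesis, rose, and in all 8 of 19 tested eicosanoid genes rose and 1 fell (median 0.048). Among adhesion and matrix genes, 8 of 31 rose and 6 fell, with 11 falls with the replicate block. Thbs1, the thrombospondin gene, stood at 11.85, 11.63 and 11.57 in the DOX libraries and 11.13, 10.65 and 10.61 in the DMSO libraries (difference 0.89, SE 0.10, adjusted p = 2.86e-05), and the fibronectin gene Fn1 at 9.73, 9.95 and 9.97 in the DOX libraries and 8.83, 9.13 and 9.10 in the DMSO libraries (difference 0.86, SE 0.071, adjusted p = 1.06e-06). Spp1, which encodes the matrix protein osteopontin, stood at 10.99, 10.69 and 10.70 in the DOX libraries and 11.59, 11.69 and 11.68 in the DMSO libraries (difference −0.86, SE 0.060, adjusted p = 2.26e-07). Thbs1 and Fn1 were higher and Spp1 lower throughout. The integrin alpha 4 gene Itga4 (−0.28) fell while the integrin gene Itga1 (0.44) rose. Other large rises were those of Prkcb, a protein kinase C gene, at 9.02, 8.90 and 8.85 in the DOX libraries and 8.47, 8.19 and 8.23 in the DMSO libraries (difference 0.63, SE 0.061, adjusted p = 5.38e-06), and Msrb1, which encodes a selenoprotein that repairs oxidized methionine, at 9.92, 9.92 and 9.95 in the DOX libraries and 9.31, 9.31 and 9.29 in the DMSO libraries (difference 0.63, SE 0.030, adjusted p = 5.74e-09). Neither overlapped.

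Further metabolic and chromatin lists moved in part. Of 32 amino acid response genes 11 rose and 0 fell (median 0.075), led by Cth (0.27), Atf5 (0.27) and Asns (0.26), with 7 rises without DOX 3 and 17 without the first library of each group. Of 25 cholesterol genes 10 rose and 1 fell, and the rises ranged from 3 without DOX 2 to 16 without both first libraries. Of 33 cytoskeleton genes 13 rose, led by Tmsb4x (0.42) and Actn1 (0.41), and 2 fell, with Gsn, the gelsolin gene, at −0.27. With the replicate block 20 rose. Of 39 polycomb and histone-modifying genes 12 fell and 2 rose (median −0.071), among the falls Hdac7 (−0.30), the demethylase gene Kdm5b (−0.26), the DNA methyltransferase gene Dnmt3a (−0.22) and the H3 lysine methyltransferase gene Ezh2 (−0.18). Those falls numbered 6 without DOX 2, 7 without DOX 3 and 20 without both first libraries, and the rises 0 without DMSO 2, DMSO 3, DOX 1 or DOX 2. Of 24 antigen presentation genes 7 fell and 1 rose (median −0.029), with the peptide transporter gene Tap2 (−0.31), H2-Q4 (−0.20) and the class I activator gene Nlrc5 (−0.20) among the falls. Class I genes such as H2-Q4 have near-identical copies, so their reads are uncertain. Of 21 iron and heme genes 7 rose, with the heme synthesis gene Alas1 (0.30) first, and 2 fell, with 2 to 4 rises without any one of DMSO 2, DMSO 3, DOX 2 and DOX 3.

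The labelled cell type was checked against markers. The myeloid genes Ptprc, Itgam, Spi1, Csf1r, Csf3r, Fcgr3 and Mpo were measured in all libraries. Pax5, Cd3e, the globin genes and the collagen gene Col1a2 were 0 in all 6. The summed level of the mast cell and basophil list ran from 10.62 to 10.96 with DOX and from 10.62 to 10.89 with DMSO, in log2 units. Of its 10 tested members 2 rose, Mcpt8 (0.20, not called without DMSO 2, DMSO 3 or DOX 1, nor under 5 other settings, with adjusted p up to 0.216) and Prss34 (0.16, not called without DMSO 2, DMSO 3 or DOX 1, with adjusted p up to 0.0759). Mcpt4 was 0 throughout. The summed eosinophil list ran from 8.05 to 8.33 with DOX and from 7.94 to 8.24 with DMSO. The erythroid, megakaryocyte and B lymphoid lists had 1, 4 and 2 tested members, of which 1 fell, the integrin gene Itgb3 (−0.20). Of 2 tested T and NK genes 1 rose, the granule protein gene Nkg7 (0.18, not called without DMSO 2, DMSO 3, DOX 1 or DOX 3, nor under 5 other settings, with adjusted p up to 0.161). In the stroma and endothelium list Pecam1 (−0.42) and Pdgfrb (−0.25) fell, while Tek, Pdgfra and Dcn were 0. That list summed to 9.475 to 9.58 with DOX and 9.925 to 9.956 with DMSO, without overlap. The T and NK list summed to 7.387 to 7.643 with DOX and 7.275 to 7.372 with DMSO. The erythroid list summed to 4.097 to 4.142 with DOX and 4.084 to 4.095 with DMSO. In both of these DOX lay above DMSO. The summed megakaryocyte and B lymphoid lists overlapped between groups. The part of other cells in the granule and monocyte results was not tested.

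MLL-AF9 cells of the same series, measured in FPKM from total RNA, gave the same contrast on another scale, and their libraries are not shared with this experiment. Of 1068 genes that rose with MLL-AF10 and were measured there at 1 FPKM or more, 563 (52.7%) had all 3 DOX libraries above all 3 DMSO libraries, against 17.5% of 9787 genes, and 45 (4.21%) had them below. Of 853 genes that fell, 314 (36.8%) had them below, against 17.3%, and 80 (9.38%) above. These are counts of order, without a test of the difference between the models. All 6 fallen Hoxa genes and 10 of 12 fallen self-renewal factors measured there were below, and all 24 risen secondary granule genes were above. Mef2c stood at 14.2, 12.1 and 13.5 FPKM with DOX and 41.8, 43.6 and 34.0 FPKM with DMSO, in the order seen with MLL-AF10. Mdm2 stood at 49.9, 61.9 and 58.2 FPKM with DOX and 57.5, 47.7 and 44.9 FPKM with DMSO, with overlap. Of the 16 fallen glycolysis genes, 2 were below, 5 above and 9 overlapped there, and Egln3 stood at 81.9, 57.7 and 69.6 FPKM with DOX and 54.5, 60.9 and 49.2 FPKM with DMSO, with overlap. Of 11 risen amino acid response genes 0 were above and 4 below, and Asns stood at 112, 111 and 119 FPKM with DOX and 134, 143 and 158 FPKM with DMSO. The means of Epha7, Flt3 and Tgfbi were under 1 FPKM in both groups there.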

How the data were processed

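RNA was measured in 3 DOX and 3 DMSO libraries of inducible MLL-AF10 cells. The members and the gene lists were chosen with earlier results of these data known. Some genes stand in several lists, such as Epha7, Lyz2, Tgfbi and Ltb4r1, so the counts of different lists are not independent. Bowtie 0.12.2 and mm9 stand in the submitters' processing notes, without a role. No source used here gives the counting tool, the annotation, the strand setting or the transformation. The values the authors deposited are normalized and on a log2 scale, from −1.968 to 14.91. The authors deposited FPKM values for MLL-AF9, which are used here as a description of order in genes with at least 1 FPKM. Libraries were grouped by their titles.

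The log2 values were tested as deposited with limma 3.58.1 (R 4.3.3, eBayes with trend), without covariates, where the mean reached 3.32. The Benjamini-Hochberg adjustment ran over all 10553 genes tested, with a threshold of 0.05. On simulated data with 200 changed genes, 81% of changes of 0.25 units and 98% of changes of 0.5 units were recovered. The simulated noise was drawn independently for each gene and library, unlike the shared deviations of the first libraries. The recovered shares therefore do not give the sensitivity in these data. Levels on this scale are not per length and were not compared between genes. Named are the fusion loci and Hoxa9, Hoxa10 and Meis1, the 12 largest rises and falls without overlap whose higher group mean was at least 8, up to 5 called members of each list, and further members where the lists' account needed them. Predicted genes, symbols turned into dates and repeated symbols were passed over.

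Libraries with the same replicate number deviated together from their group means, with correlations of 0.40, 0.20 and 0.19 across genes for numbers 1, 2 and 3, so the numbers were taken to pair the libraries by this measure. DOX 2 with DMSO 3 reached 0.17 and DOX 3 with DMSO 2 0.175, close to the same-number values, so the measure mainly sets the first libraries apart. The labels do not state a pairing. The fit with the number as a block was an alternative, beside other filters, moderation, scaling, omitted libraries and, added after the data were seen, the omission of both first libraries. Promoters and gene positions came from RefSeq (GRCm38.p6) and GENCODE M1 (mm9). Promoters matched 8400 of 10553 tested genes by gene ID. Mitochondrially encoded genes, single entries with dates for names and the expression values of the CALM-AF10 and Jak1 tables were not used here. The authors' list headed as down with MLL-AF10 off came from a sheet deposited with the Jak1 values. A few genes that count in the lists are not reported here by name.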

Additional observations from a re-analysis of the deposited data

Results flagged for a closer look

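Some genes under the naming rule had groups without overlap in both MLL models but in opposite orders. With MLL-AF10 they fell and with MLL-AF9 every DOX library lay above every DMSO library for 14 genes, given with their MLL-AF10 differences in deposited log2 units: Adam8 (−0.24), Aldoc (−0.22), Ccl3 (−0.31), Cd33 (−0.58), Cd93 (−0.26), Egln1 (−0.22), Gsn (−0.27), H2-Q4 (−0.20), Hdac7 (−0.30), Ifi203 (−0.10), Itgb3 (−0.20), Kdm5b (−0.26), Spp1 (−0.86) and Tlr7 (−0.13). The reverse order, a rise with MLL-AF10 and lower DOX libraries with MLL-AF9, was seen for 8 genes: Asns (0.26), Cth (0.27), Farsb (0.13), Gars (0.10), Gfi1 (0.20), Ifngr1 (0.16), Mthfd2 (0.16) and Prtn3 (0.24). Some of these calls were fragile: Farsb was not called under 9 of 14 alternatives (adjusted p up to 0.228), Gars under 6 (up to 0.172), Ifi203 under 5 (up to 0.178) and Tlr7 under 4 (up to 0.133). The difference between the models was not tested, since the tables are on different scales and were made from polyadenylated and from total RNA. Among all calls measured with MLL-AF9, 80 of 853 falls (9.38%) and 45 of 1068 rises (4.21%) had the opposite order there. Over all 9787 genes, DOX lay above in 17.5% and below in 17.3% with MLL-AF9. No such share was formed for the named genes, so the lists above do not show an excess.

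Spp1, the osteopontin gene, stood in MLL-AF9 cells at 4587, 5096 and 5061 FPKM with DOX and 2655, 2279 and 2402 FPKM with DMSO. Itgb3, the integrin beta chain of its receptor, stood there at 8.23, 7.58 and 6.52 FPKM with DOX and 2.62, 4.61 and 3.52 FPKM with DMSO, and Adam8 at 306, 341 and 311 FPKM with DOX and 182, 142 and 149 FPKM with DMSO. Cth, which encodes an enzyme of cysteine synthesis, stood there at 16.9, 19.3 and 18.3 FPKM with DOX and 29.5, 36.3 and 33.8 FPKM with DMSO. In Cd33 the order in MLL-AF9 rested on a narrow gap, with 92.8, 90.5 and 91.0 FPKM with DOX and 84.0, 90.2 and 81.5 FPKM with DMSO.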

How the results depend on the processing

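The number of calls ranged from 1307 to 2395 when single libraries were left out and reached 2928 without both first libraries, against 2089 with all. It was 1307 without DOX 2 (713 higher and 594 lower) and 1310 without DOX 3 (721 higher and 589 lower). Calls higher ranged from 713 to 1238, and were 1519 without both first libraries. Calls lower ranged from 589 to 1157, and were 1409 without both. With the replicate block 3102 genes were called, among them 1453 lower, and all 2089 calls were among them. Leaving out both first libraries was chosen after the data were seen, and 1946 of the 2089 calls were among its calls. Other filters, moderation and scalings gave 1930 to 2147 calls. With library medians aligned 43.9% of the calls were higher (928 higher and 1185 lower), against 53.7%, which turns the majority. The count of called genes with the same order in MLL-AF9, 877, ranged from 614 to 865 without single MLL-AF10 libraries and was 1191 with the block. Of 256 called genes under the naming rule, 203 were called under all 14 alternatives and 53 missed the threshold under at least 1. Ankrd37, plotted with the glycolysis genes, was among the 53. Mpo alone changed sign, to −0.12 with quantile normalization. The cause was not tested.

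The block changed the call of Kit, Csf1r, Aldoa, Gapdh, Trp53 and Il1b among the genes named in the text, calling all of them. Depth is unknown, so no limit of detection can be given. The deposited scale draws low genes together, so for those a missing call says little.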

Other observations

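In several lists calls were few, or their number moved with the setting. Over all tested genes 10.6% rose and 9.17% fell. Of 15 tested NF-kB subunits, inhibitors and targets 1 rose, Tnfaip2 (0.24), and 0 fell (median −0.0026), while the inhibitor gene Nfkbia was at −0.085 and not called. Of 16 IL1 family and inflammasome genes 2 rose, the adaptor gene Pycard (0.19) and the sensor gene Naip2 (0.25), and 0 fell, with 6 rises with the replicate block and 4 without both first libraries. Il1b, the cytokine gene itself, was not called (0.055, adjusted p = 0.0821). Of 11 immediate early genes 4 rose, among them Ier2 (0.16), and 2 rose without DOX 3. Of 13 ERK feedback genes 0 rose and 1 fell, Spry2 (−0.13, not called without DMSO 3, DOX 2 or DOX 3, with adjusted p up to 0.136), and 3 fell with the block.

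Of 18 chemokine ligand and receptor genes 6 rose and 4 fell. The receptor gene Ccr1 stood at 8.997, 8.99 and 9.04 in the DOX libraries and 8.58, 8.69 and 8.68 in the DMSO libraries (difference 0.36, SE 0.037, adjusted p = 9.22e-06) and the ligand gene Ccl3 at 7.91, 7.85 and 7.90 in the DOX libraries and 8.15, 8.19 and 8.26 in the DMSO libraries (difference −0.31, SE 0.037, adjusted p = 3.24e-05). Ccr1 was higher and Ccl3 lower in every DOX library. Of 18 fatty acid synthesis genes 6 rose and 2 fell, with 3 rises without DOX 3. Of 27 chaperone genes 1 rose and 2 fell, of 46 ribosome biogenesis genes 0 and 3, of 78 mitochondrial ribosomal protein genes 3 and 1, of 37 tRNA synthetase genes 2 and 1, and of 11 snoRNA host genes 0 and 1. The falls of ribosome biogenesis genes ranged from 0 without DOX 2 to 7 with the replicate block, and the rises of mitochondrial ribosomal protein genes reached 8 without both first libraries. The rises of tRNA synthetase genes numbered 0 without DOX 2, without DOX 3, without the filter on low values or with library medians aligned, 5 with the block and 8 without both first libraries. The falls of chaperone genes numbered 4 without DMSO 3, 5 with library medians aligned and 9 with the block. Of 4 tested histone genes 0 were called.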
